A study of Mus musculus with 22 samples.

Results

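Reck and the TIMP family, the dedicated inhibitors of extracellular metalloproteinases, were followed in mouse pancreatic tumors and in cancer cell lines grown from such tumors, with and without the microRNA miR-21. The members were chosen by name as Reck, Timp1, Timp2, Timp3 and Timp4, which are 5 of the 53342 genes in each count table. All 5 were found in the tables and none was left out of the account below.

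Polyadenylated RNA was sequenced from 8 tumors labelled miR21 KO, 4 tumors labelled WT, 5 lines labelled miR21 KO and 5 lines labelled WT, 22 libraries in all. Every title carries the prefix KPC, the usual name of a mouse model in which K-Ras and p53 alleles are altered in the pancreas, and the tumor labels give Bl6 mice. All 4 groups therefore share that model, and none was treated. The lines were reported to carry recombined K-Ras and p53 alleles, had been passaged at least 8 times to remove fibroblasts, and were used between passages 10 and 14 in 5% serum. Tumors were snap-frozen. The Cre driver, the extent of the miR-21 deletion and the age of the mice are not given in the sources used here. By title, a line and a tumor came from the same animal in 5 cases.

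TIMPs are small secreted proteins that block the catalytic zinc of matrix metalloproteinases (MMPs) and of related ADAM and ADAMTS enzymes. RECK is a membrane-anchored glycoprotein that restrains several MMPs at the cell surface and also serves, with Adgra2 (GPR124), as a receptor for WNT7 ligands. MicroRNAs lower their target transcripts mainly through pairing of the microRNA seed with the 3′ UTR, and RECK and TIMP3 are among the targets described for miR-21 in other systems.

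The sequences below are shown because they set which members carry a match to the miR-21 seed. The mature strand and the 3′ UTR stretches are written 5′ to 3′, with seed bases 2 to 8 of the microRNA, or the matching bases of the transcript, in capitals. The mature strand is from RefSeq (GRCm38.p6), at chr11:86584120-86584141 on the minus strand, and the UTR stretches are from GENCODE vM21 transcripts on mm10.
miR-21a-5p: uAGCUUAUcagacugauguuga
Reck: ttttacagtttgaaATAAGCTAttaa
Timp3: tttttgagctttcaATAAGCTAtagc
Timp2: cctgcgtcttaaaaaATAAGCTgtcc

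The Reck and Timp3 matches were 8mers, which hold ATAAGCT followed by A, whereas the Timp2 match was a 7mer-m8, which holds ATAAGCT without that A. The Reck stretch lies at chr4:43944393-43944418 on the plus strand, and its 8mer starts at base 1042 of a 3′ UTR of 1441 bases. The Timp3 stretch lies at chr10:86348213-86348238 on the plus strand, with the 8mer at base 2325 of 3604, and a shorter 6mer match followed at base 2850. The Timp2 stretch lies at chr11:118302336-118302361 on the minus strand, at base 1353 of 2630. No such match was present in the 3′ UTR of Timp1 (103 bases) or of Timp4 (4394 bases). Among 21025 genes with an annotated 3′ UTR, 2.16% held an 8mer and 5.36% a 7mer-m8 as their best match, searched on the transcript strand of the longest UTR, whose median length was 1091 bases. A match is a feature of the sequence and shows no binding.

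**Figure D1:**
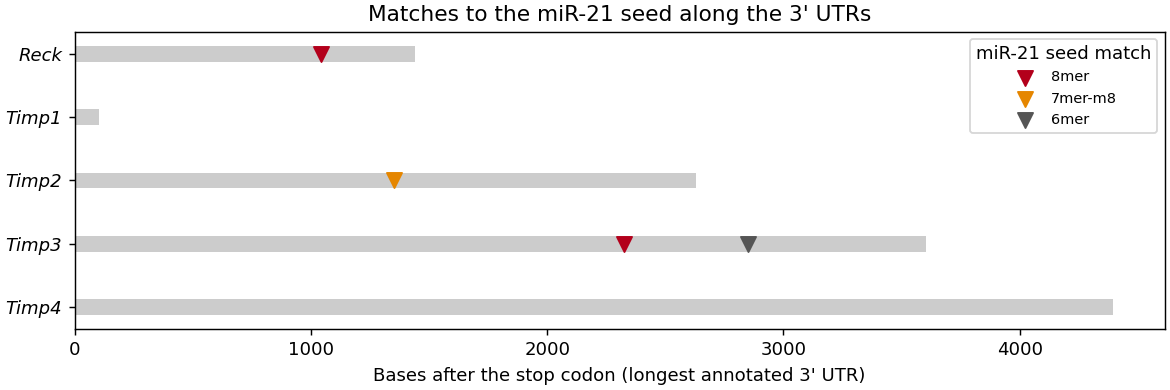
Position of matches to the miR-21 seed in the longest annotated 3′ UTR of each gene. Grey bars give the UTR length in bases from the stop codon and triangles mark the matches. Reck and Timp3 carry an 8mer, Timp2 a 7mer-m8, and Timp1 and Timp4 carry none.

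On mm10, Reck spans 43875530 to 43944806 of chromosome 4 on the plus strand (ENSMUSG00000028476.13) and Timp1 spans 20870166 to 20874735 of chromosome X on the plus strand (ENSMUSG00000001131.11). Timp2 spans 118301069 to 118355740 of chromosome 11 on the minus strand (ENSMUSG00000017466.9). Timp3 spans 86300372 to 86349506 of chromosome 10 on the plus strand (ENSMUSG00000020044.13), and Timp4 spans 115241892 to 115252205 of chromosome 6 on the minus strand (ENSMUSG00000030317.8). Timp1, Timp3 and Timp4 each lie within a synapsin gene on the opposite strand, namely Syn1, Syn3 and Syn2.

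Library totals ran from 24547650 to 31118113 counts. By these totals alone, 3 counts, the limit that a count of 0 allows, were worth at most 0.122 CPM (counts scaled to the library total), from counting error only. The CPM printed below also use a scaling (TMM) factor, with which 3 counts in KO line 4 were 0.134 CPM. No libraries of a group agreed within sampling noise, with a chi-square of at least 44.9 per degree of freedom in every pair. The Mir21a transcript, of 92 bases, had 0 counts in all 22 libraries, so these tables do not check the genotype labels. In the lines, the summed CPM of 10 fibroblast markers was 2.16 to 14.3, with Dcn, Lum and Dpt at 0 in both line groups, against 1922 to 12687 in the tumors, while the 10 ductal epithelial markers summed to 7609 to 15088 in the lines. In a tumor, fewer cells of a type and less RNA per cell cannot be told apart.

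Timp2 was the leading member in the lines. Per kb of exon, so that genes can be compared, its mean level was 144 CPM per kb in KO lines and 125 in WT lines, against 20.7 in both for Timp1 and 9.73 and 8.47 for Timp3. Reck stood at 0.109 and 0.0824 CPM per kb and Timp4 at 0.0120 and 0.0313. Timp2 was the highest of the 5 in every line, with a mean share of 82.5% of their summed level per kb in KO lines and 81.5% in WT lines.

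The order changed in the tumors. Timp1 led in 4 of 4 WT tumors, at a mean of 201 CPM per kb, followed by Timp2 at 88.6, Timp3 at 33.4, Reck at 0.498 and Timp4 at 0.113. In KO tumors the means were 148 for Timp2, 132 for Timp1, 60.8 for Timp3, 2.98 for Reck and 0.216 for Timp4. Timp2 led in 5 of the 8 KO tumors and Timp1 in the other 3, so these neighbours in the order did not separate there.

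Timp1 made up 62.1% ± 5.55 (SD, n = 4) of the summed level per kb of the 5 genes in WT tumors and 38.1% ± 12.0 (SD, n = 8) in KO tumors. The shares ranged from 55.9% to 69.0% in WT tumors and from 21.60% to 58.6% in KO tumors, so the groups overlapped. The sum itself was 324 ± 22.2 CPM per kb in WT tumors and 345 ± 100 in KO tumors. No test was run on these shares.

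**Figure D2:**
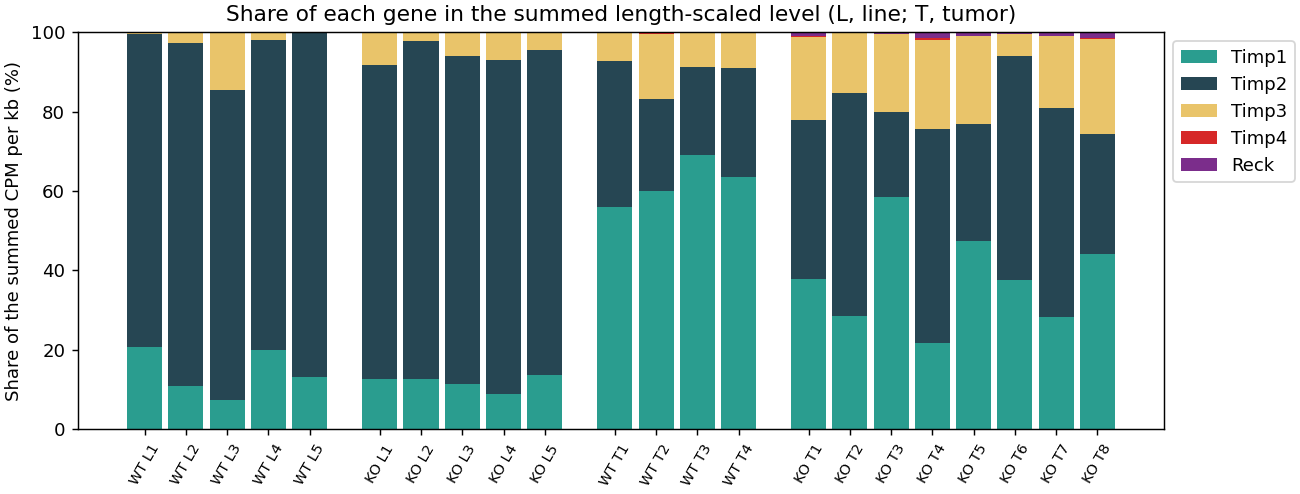
Share of each gene in the summed CPM per kb of exon of the 5 genes, 1 bar per library, in percent. Timp2 (dark blue) fills most of each line, and Timp1 (green) holds 55.9% to 69.0% of each WT tumor.

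Reck was the member with the largest difference between KO and WT tumors. It was measured at 12.4, 2.54, 10.1, 29.8, 12.8, 8.36, 13.3 and 24.6 CPM in KO tumors 1 to 8. The WT tumors gave 1.05, 4.11, 2.28 and 2.09 CPM. All KO tumors but KO tumor 2 lay above every WT tumor, and KO tumor 2 lay below WT tumor 2 only.

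The group means were 14.2 ± 8.83 CPM (SD, n = 8) in KO tumors and 2.38 ± 1.27 (SD, n = 4) in WT tumors. The edgeR quasi-likelihood fit gave a log2 fold change of 2.55 ± 0.58 (SE), ranked 113 by p among 18125 genes tested, with a Benjamini-Hochberg adjusted p of 0.123. Reck therefore did not pass the threshold of 0.05, which 0.0110% of the genes tested in tumors passed. It passed with DESeq2 (2.55, adjusted p = 0.00021), which called 889 genes or 4.90% of those tested, and with edgeR without KO tumor 2 (2.70, adjusted p = 0.0400), where 82 genes or 0.454% passed. It did not pass in the other 18 of 20 alternatives. Their adjusted p reached 0.397 in edgeR without KO tumors 4 and 8 and WT tumor 4 (1.99), called the 3 acinar-rich tumors below. KO tumor 5 was kept in that fit, although its summed acinar markers (528 CPM) exceeded those of WT tumor 4 (505 CPM). Over the 20 alternatives the log2 fold change of Reck was 1.99 to 2.91.

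Reck was close to the detection limit in the lines. KO lines 1 to 5 gave 0.508, 0.910, 0.728, 0 and 0.461 CPM, and WT lines 1 to 5 gave 0, 0.590, 0.644, 0.347 and 0.388 CPM. The groups overlapped, and the log2 fold change was 0.42 ± 0.87 (SE; edgeR, adjusted p = 0.920). The difference between the KO effects in tumors and in lines was 2.16 ± 1.06 on the log2 scale (edgeR, adjusted p = 0.615), so an effect of its own in the tumors was not established by this test. With the animal as a block in limma-voom, this difference was 1.49 (adjusted p = 0.849).

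Fibroblast markers varied with Reck among the KO tumors, less plainly when the WT tumors are included. KO tumor 2, the lowest KO tumor for Reck, had the lowest summed fibroblast markers (1922 CPM), and KO tumors 4 and 8, the highest for Reck, had the highest sums (9453 and 12687 CPM). WT tumor 3 had the next highest sum (7638 CPM) with Reck at 2.28 CPM, and WT tumor 2 had 5949 CPM with Reck at 4.11 CPM. KO tumors had a median sum of 5729 CPM and WT tumors 4932 CPM, with ranges of 1922 to 12687 and 2845 to 7638. Of the 10 fibroblast markers tested, 9 had a positive log2 fold change (KO minus WT), with a median of 1.23 against 0.01 over all genes. Of them, 4 higher and 1 lower reached an unadjusted p under 0.05, against 16.7% of all genes in either direction, and none passed after adjustment. Thy1, a surface glycoprotein of fibroblasts, had 1.16 ± 0.29 (adjusted p = 0.139), Pdgfra, the receptor of platelet-derived growth factor, 1.55 ± 0.45 (0.148) and Pdpn (podoplanin) 1.39 ± 0.40 (0.148), whereas Fap, a surface protease of activated fibroblasts, had −1.15 ± 0.36 (0.176; all edgeR). Without the 3 acinar-rich tumors the median was 0.57 and Pdgfra 0.94, and the median was 0.60 with limma-voom.

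Set against the same tumor's summed fibroblast markers, Reck did not overlap between genotypes. There were 1.32 to 3.16 Reck CPM per 1000 CPM of markers in the 8 KO tumors (median 1.96) and 0.298 to 0.690 in the 4 WT tumors (median 0.451). The same held for 0.546% of the genes tested. The sum is mostly collagen: taken against each of the 10 markers in turn, the groups separated for 5 (Col1a1, Col1a2, Col3a1, Dpt and Fap) and overlapped for the other 5, Thy1, Pdgfra and Pdpn among them. With the summed 10 endothelial markers as the divisor, Reck also separated the genotypes. Its lowest KO value was 12.6 CPM per 1000 CPM of those markers, and its highest WT value was 8.73. That separation was found for 1.03% of the genes tested. The lack of overlap was therefore not particular to the fibroblast sum. The fibroblast ratio was chosen after the values were seen, and neither ratio carries a test.

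**Figure D3:**
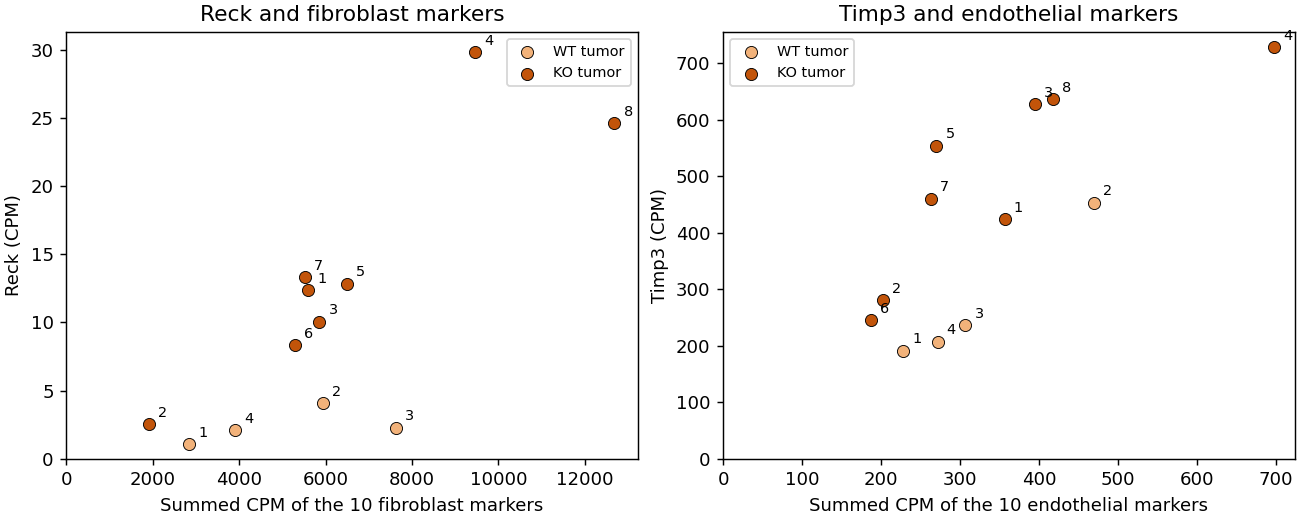
Reck (left) and Timp3 (right), in CPM, against the summed CPM of 10 fibroblast or 10 endothelial markers in the 12 tumors, numbered by tumor within genotype, all axes linear. KO tumors (dark) lie above WT tumors (light) at similar marker sums, and KO tumors 4 and 8 lie highest for Reck.

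Acinar markers, a sign of remaining normal exocrine pancreas, moved the same way. Their summed CPM was 28.3 to 2664 (median 388) in KO tumors and 15.2 to 505 (median 46.4) in WT tumors, with KO tumor 2 lowest and KO tumors 4 and 8 highest among the KO tumors. All 10 acinar markers tested had a positive log2 fold change and none passed. Their median of 1.88 rested on single tumors, being 5.05 without WT tumor 4 and 1.04 without KO tumor 4. Cela1, an elastase, had 1.66 ± 0.57 (edgeR, adjusted p = 0.197). Ductal epithelial markers ran the other way, with 9 of 10 negative, a median of −0.52, and −1.27 ± 0.31 for Krt18 (adjusted p = 0.136) and −1.08 ± 0.29 for Krt7 (0.147), keratins of simple epithelia.

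Mesothelial markers were positive in 7 of 8 cases, with a median of 1.43 (2.07 without WT tumor 4), and none passed. Wt1, a transcription factor of mesothelium, had 1.78 ± 0.51 (edgeR, adjusted p = 0.148) and Rspo1, a WNT enhancer, 2.58 ± 0.74 (0.148). The summed level of this list does not measure mesothelium here, since Krt19 and Msln make up most of it and the lines themselves had 339 to 1563 CPM of Msln. Pericyte and smooth muscle markers were positive in 5 of 10 (median −0.01), with Cspg4 at −0.78 ± 0.32 (adjusted p = 0.259) and Rgs5 at 1.18 ± 0.62 (0.357; 0.54 without KO tumor 6), and macrophage markers in 9 of 10 (median 0.22, and −0.11 without the acinar-rich tumors). Their summed ranges were 243 to 1686 and 252 to 959 CPM for pericyte markers, and 717 to 3659 and 1156 to 2316 CPM for macrophage markers, in KO and WT tumors in that order. The pericyte sum did not follow Reck, with KO tumor 5 highest at 1686 CPM and KO tumors 4 and 8 at 617 and 598. The macrophage sum varied with Reck among the KO tumors, as the fibroblast and acinar sums did. It was lowest in KO tumor 2 (717 CPM) and highest in KO tumors 8 and 4 (3659 and 3603 CPM). The part of these markers in the Reck difference was not tested, apart from leaving out the acinar-rich tumors named above.

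Timp3, the TIMP that is retained in the matrix and also inhibits ADAM17 and aggrecanases, was the other member with an 8mer. KO tumors 1 to 8 gave 425, 281, 628, 728, 554, 245, 461 and 637 CPM, and WT tumors 1 to 4 gave 192, 453, 237 and 207 CPM. WT tumor 2 lay within the KO range and the other 3 WT tumors lay below every KO tumor. The means were 495 ± 173 CPM (SD, n = 8) and 272 ± 122 (SD, n = 4), a log2 fold change of 0.83 ± 0.31 (SE; edgeR, adjusted p = 0.221), which did not pass. Reck and Timp3 were the 2 members of 5 with an unadjusted p under 0.05 in tumors, as were 16.7% of all genes tested.

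Timp3 varied most among the WT lines. WT lines 1 to 5 gave 4.41, 36.0, 283, 20.6 and 1.04 CPM, and KO lines 1 to 5 gave 121, 29.2, 78.7, 97.6 and 69.7 CPM. WT line 3 exceeded every KO line, WT line 2 exceeded KO line 2, and the other 3 WT lines lay below all KO lines. The log2 fold change was 0.20 ± 1.10 (SE; edgeR, adjusted p = 0.972), and without WT line 3 it was 2.36 (adjusted p = 0.346). The direction also turned when KO line 1 or WT lines 1, 4 or 5 were left out (−0.12 at the lowest), so the lines gave no stable direction for Timp3.

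Endothelial markers stood near each other in the tumor groups, with summed CPM of 187 to 698 (median 314) in KO tumors and 228 to 470 (median 289) in WT tumors. Of 10 tested, 7 were positive, with a median log2 fold change of 0.19 (−0.09 without KO tumor 4, −0.22 without the acinar-rich tumors), and none reached an unadjusted p under 0.05. Vwf, the von Willebrand factor, had 0.33 ± 0.34 (edgeR, adjusted p = 0.655) and Cdh5, the junction protein VE-cadherin, −0.35 ± 0.23 (0.466). Per 1000 CPM of these markers there were 1042 to 2050 Timp3 CPM (KO tumors) and 763 to 964 (WT tumors), ranges that did not overlap, as for 1.03% of the genes tested. Against the fibroblast sum the Timp3 ranges overlapped, at 46.3 to 146 and 31.0 to 76.2. These Timp3 ratios were chosen with earlier results of these data known and carry no test. They were not taken against single markers.

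The Syn3 gene surrounds Timp3 on the opposite strand and shares 1733 exon bases with it. Syn3 had 0.852% as many counts as Timp3, and a log2 fold change in tumors of 1.33 ± 0.43 (edgeR, adjusted p = 0.185). The kit marks strand, but the strand setting of the counting is not given in the sources used here, so reads of Timp3 and Syn3 cannot be told apart with certainty.

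Timp2, which both inhibits MMPs and takes part with MMP14 in activating pro-MMP2, carried the 7mer-m8. KO tumors 1 to 8 gave 389, 499, 325, 841, 349, 1198, 641 and 386 CPM, and WT tumors 1 to 4 gave 473, 302, 293 and 312 CPM. All KO tumors lay above WT tumors 2, 3 and 4, while WT tumor 1 exceeded 4 of them. The means were 578 ± 305 CPM (SD, n = 8) and 345 ± 85.5 (SD, n = 4), and the log2 fold change was 0.72 ± 0.36 (SE; edgeR, adjusted p = 0.342).

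In the lines, Timp2 was narrow in one genotype and wide in the other. KO lines 1 to 5 gave 555, 561, 518, 558 and 609 CPM, and WT lines 1 to 5 gave 440, 544, 732, 388 and 326 CPM. WT line 3 was the highest line, and the other 4 WT lines lay below all KO lines except KO line 3, which WT line 2 exceeded. The log2 fold change was 0.21 ± 0.20 (SE; edgeR, adjusted p = 0.812). Cep295nl, a gene inside Timp2 on the same strand with no shared exon bases and 0.347% as many counts, had −1.10 ± 0.31 in lines (adjusted p = 0.713) and −0.05 ± 0.51 in tumors (0.974).

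Timp1, which binds pro-MMP9 and is often raised in pancreatic cancer, was the only member with a negative difference in tumors, and it has no seed match. KO tumors 1 to 8 gave 83.9, 58.0, 205, 76.5, 129, 182, 78.7 and 129 CPM, and WT tumors 1 to 4 gave 163, 179, 207 and 164 CPM. KO tumors 3 and 6 lay within the WT range and the other 6 lay below it. The means were 118 ± 53.2 CPM (SD, n = 8) and 178 ± 20.6 (SD, n = 4), and the log2 fold change was −0.64 ± 0.30 (SE; edgeR, adjusted p = 0.305).

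Timp1 had the same mean in both line groups, at 18.4 ± 3.73 CPM in KO lines and 18.4 ± 6.04 in WT lines (SD, n = 5 each). KO lines 1 to 5 gave 20.3, 19.2, 16.3, 13.3 and 22.9 CPM, and WT lines 1 to 5 gave 26.4, 15.7, 15.7, 22.7 and 11.4 CPM. The log2 fold change was 0.00014 ± 0.24 (SE; edgeR, adjusted p = 1.00), and its sign changed with RLE factors. Syn1, opposite to Timp1 with 0 shared exon bases, had 4.61% as many counts as Timp1 and a log2 fold change of −0.20 ± 0.64 in tumors (adjusted p = 0.905).

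Timp4, a TIMP best known from heart and brain, was near the detection limit in most libraries. KO tumors 1 to 8 gave 0.650, 0.0696, 0.0623, 6.54, 0.474, 0.0666, 1.13 and 1.22 CPM, and WT tumors 1 to 4 gave 0.315, 1.28, 0.930 and 0.144 CPM. KO tumor 4 stood apart with 170 counts, and the other tumors had 2 to 38. The log2 fold change was 0.88 ± 1.14 (SE; edgeR, adjusted p = 0.736), and −0.38 (adjusted p = 0.886) without KO tumor 4.

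In the lines Timp4 had 0, 3, 3, 3 and 0 counts in KO lines 1 to 5 and 2, 0, 20, 0 and 1 in WT lines 1 to 5, and it did not enter the test. Its level was therefore not detectable above the limit in most lines. Syn2, opposite to Timp4 with 90 shared exon bases, had 164% as many counts as Timp4 over all libraries and a log2 fold change in tumors of 0.89 ± 0.59 (edgeR, adjusted p = 0.473). Reads of Timp4 and Syn2 cannot be told apart where they share exons, since the strand setting is not given.

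**Figure D4:**
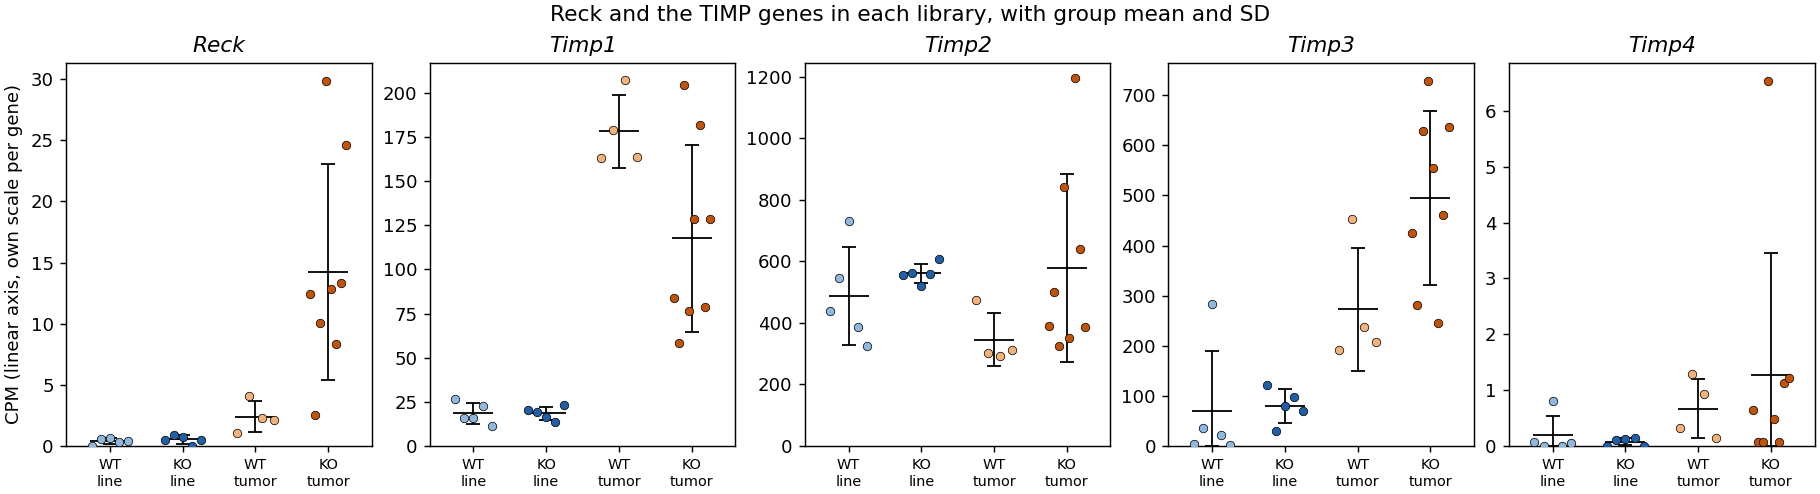
CPM of each gene in every library, by group, on linear axes with a scale of their own. Points are libraries, the horizontal mark is the group mean and the bar its SD, stopped at 0 where it would go below. Reck lies above 8 CPM in 7 of 8 KO tumors and at or below 4.11 CPM in the WT tumors and all lines.

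By count, 4 of the 5 members had a positive log2 fold change in tumors, with a median of 0.83 against 0.01 over all genes, and 4 of the 4 tested did in lines, with a median of 0.20 against −0.03. No member separated the genotypes completely: every KO tumor lay above every WT tumor for 1.12% of the genes tested and below for 0.789%, and every KO line above every WT line for 0.742% and below for 0.521%. No member passed the adjusted threshold in either, where 0.0110% and 0.0143% of all genes did. At an unadjusted p under 0.05 there were 2 members in tumors and 0 in lines, where 6.99% of all genes reached it, and DESeq2 called 1 member in tumors, Reck, where it called 4.90% of all genes, and 0 in lines, where it called 0.328%. Between the KO effects in tumors and lines, edgeR called no member and none of the 18662 genes (0%), with 8.25% at an unadjusted p under 0.05 and 67 genes (0.359%) called by DESeq2. The differences were −0.60 ± 0.41 for Timp1, 0.54 ± 0.43 for Timp2, 0.66 ± 1.16 for Timp3 and 2.28 ± 1.83 for Timp4, with adjusted p of 0.731, 0.780, 0.948 and 0.785.

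By the number of genes called, tumors differed from lines far more than KO from WT. For Reck, KO minus WT in tumors was 2.55 ± 0.58. That lay near its 2.59 ± 0.80 for WT tumors minus WT lines and below its 4.75 ± 0.81 for KO tumors minus KO lines. The size for Timp2 did not follow the number of genes called, with 0.72 ± 0.36 for KO minus WT in tumors against the values given next. Between WT tumors and WT lines, Timp1 was higher by 3.28 ± 0.33 on the log2 scale (edgeR, adjusted p = 3.0e-07) and Reck by 2.59 ± 0.80 (adjusted p = 0.0125), 2 members of 5 called higher where 28.0% of all genes were. Timp3 had 1.98 ± 0.89 (0.0721), Timp4 1.83 ± 1.31 (0.261) and Timp2 −0.49 ± 0.33 (0.226). In limma-voom, Timp3 passed without a block (4.0, adjusted p = 0.00077) and with the animal as a block (4.05, adjusted p = 0.00018), and Timp4 passed with the block (3.15, adjusted p = 0.0348). In edgeR without WT line 3, Timp3 (4.13) and Timp4 (4.29) passed.

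Between KO tumors and KO lines, 4 members of 5 were called higher, against 34.2% of all genes. Reck was higher by 4.75 ± 0.81 (edgeR, adjusted p = 6.8e-05), Timp1 by 2.68 ± 0.30 (5.6e-07), Timp3 by 2.64 ± 0.83 (0.0109) and Timp4 by 4.11 ± 1.35 (0.0139). Timp2 had 0.05 ± 0.28 (0.898). Timp4 did not pass in limma-voom without (2.89, adjusted p = 0.0527) or with the animal as a block (2.57, adjusted p = 0.0630), and was 2.80 (adjusted p = 0.0445) in edgeR without KO tumor 4. Cell type markers moved with these differences. All 10 fibroblast, all 10 pericyte and all 10 endothelial markers were called higher in tumors of both genotypes. So were 9 of 10 macrophage markers in WT and 10 in KO, and 8 of 10 acinar markers tested in WT and 10 in KO. The part of any of these cell types in the member differences was not tested.

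Within the 5 animals that gave a line and a tumor, the size of the difference varied by animal. Timp1 was 2.86 to 11.4 times higher in the tumor than in the line of the same animal, and Timp3 2.32 to 43.4 times. In the 3 WT animals Timp3 differed more than Timp1 (43.4, 12.6 and 11.5 times against 6.18, 11.4 and 9.13), unlike in the edgeR fit of all WT libraries. Timp2 ran from 0.534 to 1.08 times the line. Reck was 5.00 to 21.8 times higher in the 4 animals whose line had a Reck count, and WT line 1 had 0 against 1.05 CPM in its tumor. Timp4 was 0 in 4 of the 5 lines, and the tumors of the same animals had 0.0696 and 0.0623 CPM (KO) and 1.28 and 0.930 CPM (WT).

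**Figure D5:**
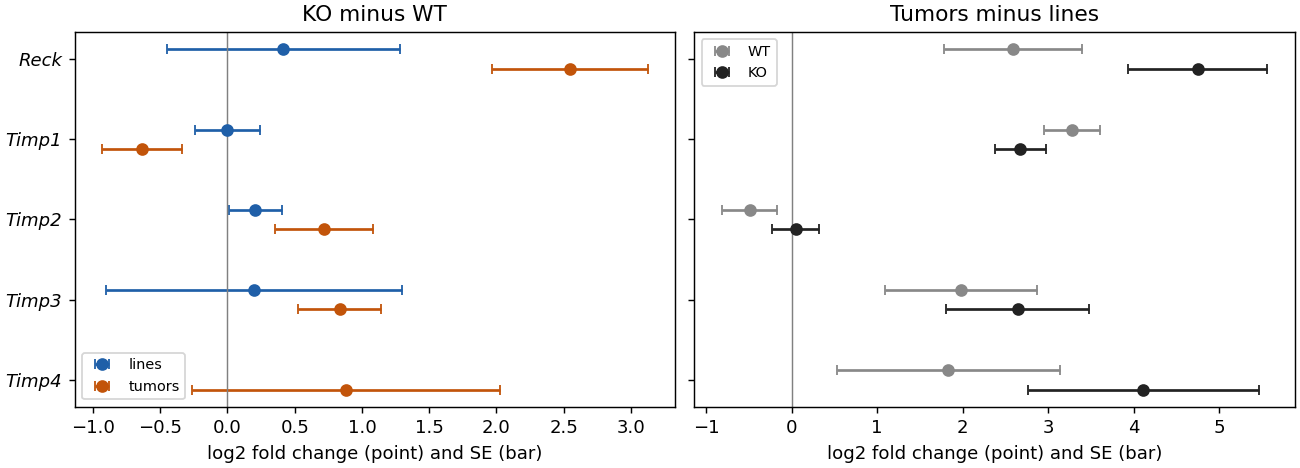
Log2 fold changes (points) with standard errors (bars) from the edgeR fits, for KO minus WT in lines and tumors (left) and for tumors minus lines in each genotype (right). Timp4 was not tested in lines. Reck has the largest value on the left, 2.55 in tumors, and Timp2 stays nearest to 0 on the right.

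The enzymes that these inhibitors hold in check showed no common direction in tumors. Of 18 matrix metalloproteinases, 11 had a positive log2 fold change (median 0.13, and −0.05 without the acinar-rich tumors), 3 higher and 3 lower reached an unadjusted p under 0.05, as 16.7% of all genes did, and none passed. Mmp2, the gelatinase activated through TIMP2 and MMP14, had 1.13 ± 0.44 (edgeR, adjusted p = 0.234), and Mmp14, the membrane-type enzyme itself, −0.42 ± 0.18 (0.273). Mmp13, a collagenase, had −1.81 ± 0.63 (0.202) and Mmp9, the other gelatinase, −1.36 ± 0.55 (0.247). In lines 11 were tested, 5 of them positive (median −0.03, and 0.13 without WT line 3). Mmp24 had −1.94 ± 0.63 (adjusted p = 0.713), and −1.01 without WT line 3, and Mmp23 had 2.23 ± 1.02 (0.715), and 1.18 without KO line 3.

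Of 14 ADAM and ADAMTS genes, 10 were positive in tumors (median 0.14). Of the 14, 2 higher and 3 lower reached an unadjusted p under 0.05, against 16.7% of all genes, and none passed. Adamts2, a procollagen processing enzyme, had 1.70 ± 0.48 (edgeR, adjusted p = 0.147). Adam17, the TNF-releasing sheddase blocked by TIMP3, had −0.41 ± 0.16 (0.237), Adam12 −0.65 ± 0.26 (0.239) and the aggrecanase Adamts4 −0.71 ± 0.30 (0.260). In lines 5 of 11 were positive (median −0.08, and 0.17 without WT line 3 or 0.13 without WT line 2), with Adam9 at 0.23 ± 0.17 (0.756) and Adam10 at 0.16 ± 0.15 (0.811).

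Other inhibitors of extracellular proteases were divided, with 8 of 18 tested positive in tumors (median −0.08, and 0.03 without WT tumor 3) and none passing. A2m, the broad protease trap alpha-2-macroglobulin, had 2.91 ± 0.76 (edgeR, adjusted p = 0.139), and 3.70 without WT tumor 4. Serping1, the C1 inhibitor, had 1.16 ± 0.58 (0.339), and 0.33 without the acinar-rich tumors, and Cst3, cystatin C, 0.64 ± 0.33 (0.351). Spock3, a testican proteoglycan, had −1.97 ± 0.87 (0.279), and −2.99 without KO tumor 3. In lines 8 of 10 were positive (median 0.50), with the Kunitz inhibitors Spint1 at 1.48 ± 0.62 and Spint2 at 0.69 ± 0.27 (both adjusted p = 0.713). Spint1 was 2.14 without WT line 2.

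The partners of RECK in WNT7 reception had opposite signs in the materials. All 6 genes of that list were negative in tumors (median −0.26) and all 6 positive in lines (median 0.35), and none passed in either. The WNT7 ligand gene Wnt7b had −2.03 ± 0.55 in tumors (edgeR, adjusted p = 0.145; −1.22 without the acinar-rich tumors), and the co-receptor gene Lrp5 −0.29 ± 0.15 (0.349). The other ligand gene, Wnt7a, had 1.43 ± 0.43 in lines (0.713). The test of the difference between the materials called none of the 6, with 2 lower at an unadjusted p under 0.05, against 8.25% of all genes in either direction.

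Cell surface partners of TIMPs were positive in 5 of 9 cases in tumors, with none passing. Their median of 0.26 turned to −0.12 without KO tumor 8. Efemp1 (fibulin-3), a binding partner of TIMP3, had 1.54 ± 0.39 (edgeR, adjusted p = 0.139), the endocytic receptor Lrp1 0.84 ± 0.26 (0.167) and the integrin Itga3 −0.58 ± 0.31 (0.375). In lines 4 of 7 were positive (median 0.01, and −0.03 without WT line 2), with Itga3 at 0.42 ± 0.22 (0.720).

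Of 18 other published miR-21 targets, 10 were positive in tumors (median 0.13), 5 higher and 2 lower reached an unadjusted p under 0.05, against 16.7% of all genes, and none passed. Pdcd4, an inhibitor of translation, had 1.03 ± 0.36 (edgeR, adjusted p = 0.201) and Ski, a corepressor of TGF-beta signalling, 0.47 ± 0.13 (0.145). The Notch ligand gene Jag1 had −1.62 ± 0.42 (0.139) and the GTPase gene Rhob −0.90 ± 0.26 (0.148). In lines 12 of 18 were positive (median 0.22), 5 higher and 0 lower reached an unadjusted p under 0.05, against 6.99% of all genes, and none passed. Ski had 0.64 ± 0.16 (adjusted p = 0.620), Cdc25a, a cell cycle phosphatase, 0.57 ± 0.19, Btg2, an antiproliferative gene, 0.71 ± 0.24 and Tgfbr2, the TGF-beta receptor, 0.55 ± 0.19 (each 0.713).

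Likeness of pattern was measured as Pearson's r of log2 CPM after the group means were subtracted, over the 12 tumors and 15253 genes, as a description of libraries that share depth and cell content. Reck was most like Svep1 (r = 0.99, Spearman's rho = 0.94), Arhgap24 (0.98, rho = 0.91) and Ddr2 (0.98, rho = 0.95). Without KO tumors 2 and 4, the farthest from the median, these r were 0.96, 0.95 and 0.97. Timp3 was most like Tek (r = 0.95, rho = 0.97), an angiopoietin receptor gene of endothelium, Adcy4 (0.94, rho = 0.90) and Skap2 (0.93, rho = 0.89).

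The other TIMPs had other neighbours in tumors. Timp1 was most like Brip1os (r = 0.93, rho = 0.89), Nme1 (0.89, rho = 0.85) and Nans (0.88, rho = 0.90), and Timp2 most like Srpk2 (0.94, rho = 0.82), Pttg1ip (0.93, rho = 0.87) and Gm44164 (0.92, rho = 0.85). Timp4 was most like Hoxd9 (0.94, rho = 0.91), Adhfe1 (0.94, rho = 0.93) and Cd46 (0.92, rho = 0.95). Without the 2 farthest tumors these 9 values of r fell no lower than 0.81, for Nans.

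Over the 10 lines and 12611 genes, Timp2 was most like Tmem176a (r = 0.99, rho = 0.95), Tmem176b (0.98, rho = 0.95) and Cd14 (0.97, rho = 0.85). Timp3 was most like Glyctk (0.98, rho = 0.87), Trpc1 (0.97, rho = 0.90) and Hs6st2 (0.97, rho = 0.94), and Timp1 most like Fastkd5 (0.91, rho = 0.85), Fbxo48 (0.91, rho = 0.92) and Tubgcp4 (0.91, rho = 0.92). No gene was among the nearest of a member in tumors and in lines. Reck and Timp4 lay under 1 CPM on average in the lines and were not compared there.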

How the data were processed

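TRIzol RNA went into KAPA stranded mRNA libraries, read from 1 end over 75 bases, per the labels' protocols. The submitters' processing notes name bcl2fastq 1.9.0, Trim Galore, STAR and mm10; the counting program, its strand setting and the annotation are not given in the sources used here. The authors deposited raw read counts per gene for each library, separately for lines and for tumors. Any difference in counting between lines and tumors therefore cannot be told apart from the difference in material. Of 53342 gene IDs, 53237 matched GENCODE vM21 with the version ignored, and 105 (0.00944% of counts) did not.

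The CPM printed are counts over the library total times a TMM factor computed over all 22 libraries, and levels per kb divide by the union of annotated exons. Tests were made with edgeR 4.0.16 (R 4.3.3; limma 3.58.1, DESeq2 1.42.0): low-count filter by group, TMM, robust quasi-likelihood, Benjamini-Hochberg over all genes, threshold 0.05. The SE given with edgeR values is the absolute log2 fold change divided by the square root of the F statistic of its test. Lines and tumors were fitted apart for KO minus WT, and all 22 libraries together for the other comparisons. Lines and tumors of 5 animals were paired by title, so these comparisons were also run with the animal as a block in limma-voom. Other libraries are separate animals or lines by title. The fits were also run on simulated counts that held no outlying libraries and no differences in cell content. That run therefore does not show how the fits behave where tumors differ in these ways.

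Sites are matches to miR-21a-5p bases 2 to 8 in the longest annotated 3′ UTR. Markers and pathways are 13 lists. The genes named are the 5 members, Mir21a, genes overlapping a member, up to 4 genes per list with the smallest p, and the 3 genes most like each member with a mean of at least 1 CPM (log2 CPM, prior count 2). The members, lists and tests were chosen with earlier results of these data known.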

Additional observations from a re-analysis of the deposited data

Results flagged for a closer look

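In groups of 4, 5 and 8 libraries, 4 of the 20 combinations of member and group held a library far from the rest. About 1 would be flagged by chance if the values were normally distributed. Linear CPM need not be, least of all for Timp4 near the detection limit, so 4 against 1 does not measure an excess. Timp2 in WT tumor 1 was 473 CPM against 312 in the nearest WT tumor. Timp3 in WT line 3 was 283 CPM against 36.0 in the nearest WT line, and Timp4 in the same line was 0.804 CPM (20 counts) against 0.0741. Timp4 in KO tumor 4 was 6.54 CPM against 1.22 in the nearest KO tumor, and this tumor also had the highest Reck, Timp3, endothelial and acinar values of the 12 tumors.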

How the results depend on the processing

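Of 724 values of the members and of the numbers of genes called under alternatives, 666 kept direction and side of the threshold (for numbers, stayed within 1.5 times), 26 turned, 8 newly passed, 2 no longer passed and 22 numbers moved. The numbers of genes called moved: in lines from 2 to 0 without factors, 46 with DESeq2 and 5 with all libraries in 1 fit; in tumors from 2 to 889 with DESeq2, 4 with limma-voom, 40 with all libraries in 1 fit and 0 without the 3 acinar-rich tumors; and for the difference between materials from 0 to 67 with DESeq2. Leaving out each library gave 0 to 2 in lines, 0 to 1 for that difference, and 2 to 82 in tumors, where KO tumor 2 (82), WT tumor 2 (57), WT tumor 4 (6) and KO tumor 8 (4) mattered. Reck in tumors was 2.55 with DESeq2 and 2.30 to 2.91 with each tumor left out.

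Directions that turned are log2 fold changes near 0 or resting on few libraries. In lines, Timp1 was −0.00012 with RLE factors, −0.00014 with DESeq2 and −0.13 to 0.18 with each line left out. Timp3 in lines was 2.18 with limma-voom and −0.12 to 2.36 with each line left out. In tumors, Timp4 was −0.24 with limma-voom, −1.04 without the acinar-rich tumors and −0.38 to 1.36 with each tumor left out. Cep295nl in tumors was 0.050 without factors and −0.59 to 0.061 with each tumor left out, and Syn1 was −0.90 to 0.19. For the difference between the KO effects, Timp3 was −1.30 with limma-voom, −1.41 with the animal block and −1.49 to 1.03 with each library left out. Timp4 was −0.58 with the block and −0.18 to 2.81 with each left out.

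Between WT tumors and lines, Timp3 was 2.07 (adjusted p = 0.0274) with DESeq2, 4.0 (0.00077) with limma-voom, 4.05 with the animal block and 1.62 to 4.13 with each library left out, and Timp4 was 3.15 with the block and 1.32 to 4.29. Between KO tumors and lines, Timp4 was 2.89 (adjusted p = 0.0527) with limma-voom and 2.57 with the block. Timp2 there was −0.0064 without the low-count filter, −0.10 with limma-voom, −0.16 with the block and −0.19 to 0.13 with each left out. Set against limma-voom without it, the animal block changed the call of Timp4 between WT tumors and lines and of no other member. Why the settings differ was not tested. Depth limits Reck in lines and Timp4 in most libraries. By library totals alone 3 counts were 0.122 CPM or less, and with the TMM factor they were 0.134 CPM in KO line 4.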
